A study of Homo sapiens with 8 samples.

Results

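The short arm of chromosome 6 carries, side by side, the largest cluster of histone genes and the major histocompatibility complex (MHC). Peaks of the ATAC-seq table were taken by their start position alone, from the first histone cluster to the end of class II, which gave 520 of 70312 peaks. By position they fall into 4 stretches (hg38): 154 peaks at chr6:25720314-28496569 in the histone stretch, 186 at chr6:28523226-31498261 in class I, 76 at chr6:31541118-32397889 in class III and 104 at chr6:32413174-33597305 in class II. These peaks name 252 genes, of which 157 were found in the RNA table by symbol and 43 by gene ID, and 52 were not matched. The 200 RNA rows reached are of 25377 in the table, and 172 of them carried an adjusted p.

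The cells were Raji, a human B cell line from a Burkitt lymphoma. RGS-SE knockout cells, labelled as edited by CRISPR/Cas9 with a pair of guides against a super-enhancer of chromosome 1 lying between RGS1 and RGS13, were compared with wild-type cells. The labelled interval is chr1:192515157-192741754, so no base of the 6p region was targeted. Knockout cells came from single clones whose number is not given in the sources used here, so genotype and clone cannot be told apart. RNA-seq was done on poly(A) RNA. ATAC-seq, in which the Tn5 transposase cuts and tags accessible DNA, was done on 50000 cells. Each assay had 2 knockout and 2 wild-type libraries.

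All fold changes, standard errors (SE) and adjusted p-values below are those of the authors' deposited tables of DESeq2 results, which give 1 mean normalised count, over 4 libraries, for each gene or peak. Values per library are not in these tables, so the level in each genotype is given as a fitted normalised count, computed from that mean and the fold change. A gene or peak is called changed at an adjusted p under 0.05. Which genotype is on top of the fold change is not written in the tables. Positive log2 values were read as knockout above wild type, since the peak chr1:192609102-192609836 inside the labelled interval had a fitted count of 0.186 on the side taken as knockout, against 622 on the side taken as wild type. All ATAC directions rest on that peak, 1 of 18 in the interval. The others together kept 97.2% of their fitted count, with log2 values from -0.97 to 1.14. For RNA the same orientation was assumed. The RNA of RGS1 was at 3.49 and that of RGS13 at -0.20, which does not fix the RNA orientation. The tables thus show the loss of that peak and not of the whole interval, and knockout below means the libraries labelled so. The mean normalised counts summed to 32830399 for RNA and 19927559 for ATAC. All 10 B cell markers examined were present, at 58.6 to 1052 CPM, while 11 of 20 markers of other cell types were not listed and the highest of the rest reached 6.19.

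Replication-dependent histone genes supply the core histones and the linker histone H1 while DNA is copied, and most of their mRNAs end in a stem-loop in place of a poly(A) tail. Class I HLA proteins pair with B2M and show peptides from inside the cell to CD8+ T cells, and class II HLA proteins show peptides from taken-up protein to CD4+ T cells. Class II genes are switched on by the coactivator CIITA, which docks on an RFX complex at the X box and on NF-Y at the Y box of their promoters. NLRC5 plays the matching part for class I genes. Class III holds a dense mix of genes, among them TNF, complement and HSP70 genes.

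The promoters of the class II genes with the clearest layout of X and Y boxes are shown first, because these genes carry the largest group of RNA increases. They come from RefSeq (GRCh38.p14), run 5′ to 3′ on the coding strand from 180 to 16 bases before the start site, and are reference sequence, not the alleles of Raji cells. Capitals mark CCAAT or its complement and the X box core, both searched on both strands. The core is AG, any 2 bases, AC, any 3 bases and TG. In HLA-DRB1 (chr6:32589864-32590028, minus strand) the X box core starts 79 bases before the start site and CCAAT 46 bases before it. In HLA-DQB1 (chr6:32666673-32666837, minus strand) the X box core starts 121 bases before the start site. In HLA-DMB (chr6:32941044-32941208, minus strand) it starts 88 bases before the start site, and another match at 43 bases lies close to a CCAAT at 22 bases.
HLA-DRB1: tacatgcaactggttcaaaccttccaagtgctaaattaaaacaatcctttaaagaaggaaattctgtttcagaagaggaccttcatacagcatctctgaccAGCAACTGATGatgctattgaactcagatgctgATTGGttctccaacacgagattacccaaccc
HLA-DQB1: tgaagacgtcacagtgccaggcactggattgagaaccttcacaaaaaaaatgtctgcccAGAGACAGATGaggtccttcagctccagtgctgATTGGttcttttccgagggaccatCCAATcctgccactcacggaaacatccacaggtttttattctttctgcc
HLA-DMB: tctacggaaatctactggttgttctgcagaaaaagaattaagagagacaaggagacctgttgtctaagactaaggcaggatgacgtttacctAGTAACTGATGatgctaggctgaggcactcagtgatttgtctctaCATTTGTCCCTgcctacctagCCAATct

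The next 4 promoters belong to a class I gene and a class I related noncoding RNA that rose, and to a pair of histone genes with the steepest RNA decreases. HLA-B (chr6:31357200-31357379, minus strand) and HCP5 (chr6:31462980-31463159, plus strand) run from 200 to 21 bases before the start site. Capitals mark CCAAT or its complement and, in HLA-B alone of these, the class I kappa B site, which is GGGA, any base and TCCC. H4C4 (chr6:26189113-26189272, minus strand) and H1-3 (chr6:26234988-26235147, minus strand) run from 160 to 1 bases before it, with CCAAT in capitals where present.
HLA-B: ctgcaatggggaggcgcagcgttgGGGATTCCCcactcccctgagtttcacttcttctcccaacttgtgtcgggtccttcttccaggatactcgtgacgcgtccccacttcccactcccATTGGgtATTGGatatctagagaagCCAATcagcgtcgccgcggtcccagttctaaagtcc
HCP5: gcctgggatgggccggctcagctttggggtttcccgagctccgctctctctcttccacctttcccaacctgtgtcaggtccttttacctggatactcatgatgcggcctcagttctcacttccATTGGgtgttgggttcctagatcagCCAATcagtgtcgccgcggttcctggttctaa
H4C4: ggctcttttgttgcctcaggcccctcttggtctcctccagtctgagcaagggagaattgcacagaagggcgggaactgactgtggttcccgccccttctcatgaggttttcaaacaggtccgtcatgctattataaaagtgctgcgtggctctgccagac
H1-3: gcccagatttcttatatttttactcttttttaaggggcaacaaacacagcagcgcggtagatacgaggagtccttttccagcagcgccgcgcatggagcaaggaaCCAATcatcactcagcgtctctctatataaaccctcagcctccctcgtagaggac

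CCAAT was found in 44 of 50 RefSeq promoter windows of the listed histone genes, in 7 of 9 windows of the class II chain genes and in all 4 of the class II peptide loading genes. It was present in 34.6% of all 34943 promoter windows, each of 300 bases. The X box core was found in 4 of 9 class II chain windows and 2 of 4 loading windows, against 12.5% of all windows. Of the chain matches, that of HLA-DQA2 starts 23 bases after the start site, downstream of its CCAAT at 68 bases before it. The window of H4C4 held no CCAAT. These are matches of letters in a fixed window and not measured binding.

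The last sequences are the central 300 bases of the peaks that changed most in the class III and histone stretches outside promoters, among those with a mean count of at least 111, the median over all peaks, read from hg38 on the plus strand. The first (chr6:32255574-32255873) lies in an L1PA12 element inside TSBP1-AS1 and was less open in the knockout. The other (chr6:26571729-26572028) is annotated as a tRNA-Ala gene and was more open. Neither holds any of the 8 motifs searched.
L1PA12 site in TSBP1-AS1: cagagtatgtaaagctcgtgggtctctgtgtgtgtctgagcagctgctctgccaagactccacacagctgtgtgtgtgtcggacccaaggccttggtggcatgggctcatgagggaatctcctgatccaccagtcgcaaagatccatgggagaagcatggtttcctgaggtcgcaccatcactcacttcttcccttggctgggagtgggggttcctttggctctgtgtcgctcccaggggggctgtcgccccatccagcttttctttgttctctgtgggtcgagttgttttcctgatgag
tRNA-Ala site: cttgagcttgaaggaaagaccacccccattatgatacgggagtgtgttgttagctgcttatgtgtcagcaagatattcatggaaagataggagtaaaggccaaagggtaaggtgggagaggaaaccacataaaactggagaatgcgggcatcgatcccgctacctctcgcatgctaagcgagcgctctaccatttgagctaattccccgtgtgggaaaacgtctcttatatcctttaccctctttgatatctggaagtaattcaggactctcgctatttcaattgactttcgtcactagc

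Accessibility changed at 150 of the 520 peaks (28.8%), against 35.9% of all peaks. Of these, 103 were higher in the knockout (19.8% of the region, against 20.4% of all peaks) and 47 were lower (9.04%, against 15.5% of all peaks). At least 1 log2 unit was reached by 49 of the higher and 10 of the lower peaks. The median log2 fold change of the region was 0.04, and that of all peaks was -0.01. The region's neighbours on the same arm had a median of 0.07 with 35.4% called, while the long arm of chromosome 6 had a median of 0.56 with 1342 peaks higher and 105 lower of 2590. A test against a 1.5-fold change kept 31 higher and 7 lower peaks, and scaling the Wald statistics to their table-wide spread kept 12 higher and 2 lower. Setting zero at the median of the rest of chromosome 6, which lowers every log2 value by 0.41 for ATAC and 0.39 for RNA, gave 51 higher and 263 lower peaks, so the balance of directions depends on the zero point.

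Of 225 intergenic peaks, 67 were higher in the knockout (29.8%, against 22.9% of all intergenic peaks) and 12 lower (5.33%, against 13.9%), and their median log2 fold change was 0.18. Of 136 promoter peaks, 12 were higher (8.82%, against 14.2% of all promoter peaks) and 19 lower, and their median was -0.06. In the whole table intergenic peaks had a median of 0.04 and promoter peaks a median of -0.06. Shares by stretch can be set beside the 20.4% higher and 15.5% lower of all peaks. The histone stretch had 32 higher (20.8%) and 16 lower (10.4%) of 154. Class I had 46 higher (24.7%) and 14 lower (7.53%) of 186. Class III had 5 higher (6.58%) and 11 lower (14.5%) of 76. Class II had 20 higher (19.2%) and 6 lower (5.77%) of 104. The higher shares of the histone and class II stretches were thus near that of all peaks. The medians of the 4 stretches, in this order, were 0.02, 0.10, -0.13 and 0.08. Differences between stretches were not tested.

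**Figure D1:**
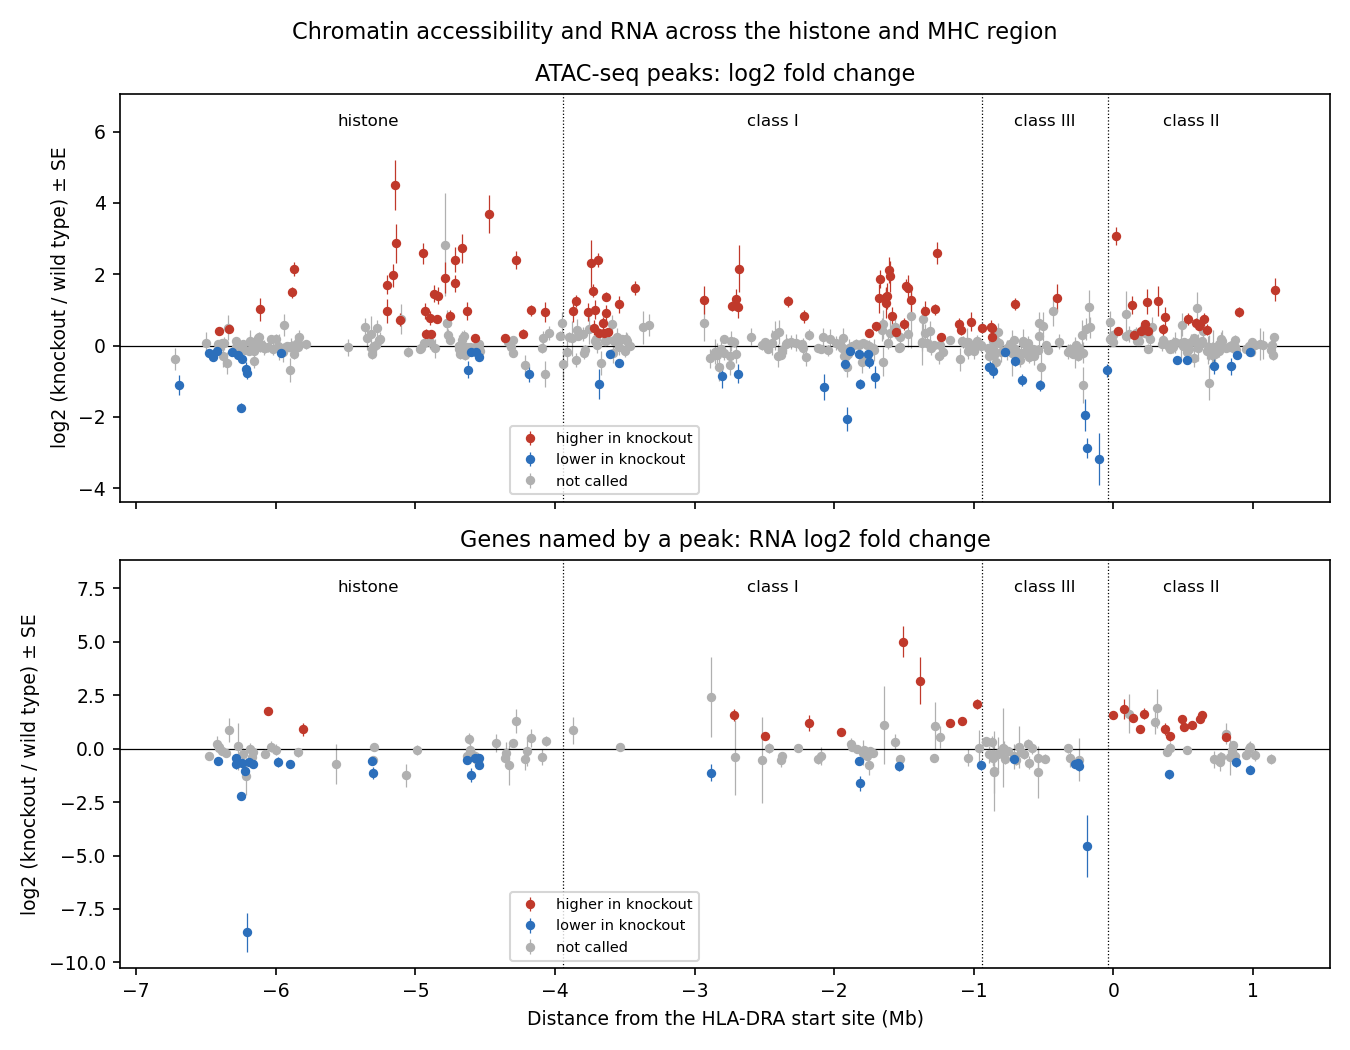
Log2 fold change (knockout over wild type, bars are the SE) of the 520 ATAC peaks above and of the 172 tested genes below, by distance from the HLA-DRA start site in Mb, with dotted lines between the 4 stretches. Red points are higher in the knockout, with 46 of 186 peaks in class I (24.7%, against 20.4% of all peaks). The RNA of 13 genes of the class II stretch was called higher, while most peaks of that stretch stay near 0.

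In intervals picked after the values were seen, most peaks were not raised, but counts of raised peaks can be set beside the 20.4% of all peaks. At chr6:27078604-27966801, which includes a gene-poor interval between separate clusters of histone genes, 22 peaks were higher in the knockout and 4 lower, of 67. Of these, chr6:27495485-27496512, upstream of the zinc finger gene ZNF184, had a fitted count of 173 in the knockout and 28.9 in wild type, 2.58 on the log2 scale (SE 0.29). A site in an MLT1F2 repeat near the olfactory receptor gene OR2B6, chr6:27966055-27966801, had 83.7 in the knockout and 6.44 in wild type, 3.70 on the log2 scale (SE 0.53). In the next interval, chr6:28523226-28982833, 15 of 46 peaks were higher and 3 lower. Its leading peak, chr6:28747424-28748236, had 381 in the knockout and 72.7 in wild type, 2.39 on the log2 scale (SE 0.19, adjusted p = 2.11e-33).

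The region holds 14 peaks annotated as tRNA genes, and 7 were higher in the knockout and none lower, with a median log2 fold change of 0.63. The 12 tRNA peaks elsewhere in the genome gave 1 higher and 2 lower, and their median was 0.06. The tRNA-Ala site printed above had a fitted count of 341 in the knockout and 77.0 in wild type, 2.15 on the log2 scale (SE 0.19, adjusted p = 2.93e-26). A tRNA-Thr site, chr6:27726368-27727158, had 215 in the knockout and 64.1 in wild type, 1.74 on the log2 scale (SE 0.24). A tRNA-Ile site at chr6:27293720-27294152 had only 67.0 in the knockout and 2.95 in wild type, so its log2 value of 4.51 (SE 0.70) rests on few reads. tRNA itself is not measured by poly(A) RNA-seq. This group was chosen after its values were seen.

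RNA changed in 55 of the 172 tested genes (32.0%), against 19.2% of all 17013 tested genes. In the knockout 24 of the 172 were higher, against 9.89% of all genes, and 31 were lower, against 9.28%. Genes of the rest of the short arm were called in 13.6% of 294 cases, with 22 higher and 18 lower. The stretches split by direction: 2 higher and 18 lower of 60 in the histone stretch, 9 higher and 5 lower of 42 in class I, 0 higher and 5 lower of 33 in class III, and 13 higher and 3 lower of 37 in class II. A test against a 1.5-fold change kept 13 higher and 2 lower genes, scaled Wald statistics kept 15 higher and 4 lower, and the zero point of the rest of chromosome 6 gave 18 higher and 70 lower. With all 266 tested RNA rows located in the region, named by a peak or not, 26 were higher (9.77%) and 39 lower (14.7%). The share called was then 24.4%. The 172 genes named by a peak had a median mean count of 702, against 337 for all tested genes. Their median SE was 0.247, against 0.314. How far this difference in level bears on the share called was not tested.

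Histone RNA fell in the knockout. Of the 54 listed genes, 52 were in the RNA table and 47 were tested. None rose, against 9.89% of all genes, and 18 fell (38.3%, against 9.28%). The median log2 fold change of the 47 was -0.38, against 0.02 for all genes. Their median mean count was 1862, against 337 for all tested genes, and their median SE was 0.210, against 0.314. How far this difference in level bears on the share called was not tested. The genes that fell code for every class: the linker histones H1-3, H1-4 and H1-5, the H2A genes H2AC15 and H2AC17, 7 H2B genes such as H2BC8 and H2BC10, the H3 genes H3C4 and H3C7, and the H4 genes H4C2, H4C4, H4C9 and H4C13. Near-identical histone copies share reads, and poly(A) selection catches only part of these mRNAs, so the value of a single gene is uncertain. A test against a 1.5-fold change kept 2 of the 18, scaled statistics kept 3, and the zero point of the rest of chromosome 6 gave 32 lower and 0 higher.

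The linker histone gene H1-3, called HIST1H1D in the ATAC table, was nearly silent in the knockout. Its fitted count was 1.43 in the knockout and 553 in wild type, -8.59 on the log2 scale (SE 0.90, adjusted p = 2.88e-19). The peak over the gene, chr6:26233677-26235161, had 203 in the knockout and 349 in wild type, -0.78 on the log2 scale (SE 0.17), so the site stayed open while almost no RNA was counted. The peak next to it towards H3C6, chr6:26223282-26224501, also fell, to 147 in the knockout against 232 in wild type. The linker histone genes H1-4 and H1-5 fell too: H1-4 had 2710 in the knockout and 4533 in wild type, and H1-5 had 22546 in the knockout and 30924 in wild type.

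H4C4, a histone H4 gene, lost both accessibility and RNA. Its fitted RNA count was 1231 in the knockout and 5743 in wild type, -2.22 on the log2 scale (SE 0.20, adjusted p = 1.94e-27). Its promoter peak chr6:26188435-26189561 had 233 in the knockout and 781 in wild type, -1.74 on the log2 scale (SE 0.12, adjusted p = 4.92e-44), the lowest value among promoter peaks of the region. Further genes that fell by more than 1 log2 unit were H2AC15 (-1.22, SE 0.32), H4C9 (-1.15, SE 0.27) and H2BC8 (-1.07, SE 0.18). The start-site peaks of these 3 genes had log2 values of -0.17, -0.05 and -0.13, and that of H2AC15 was called.

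Few start-site peaks of histone genes were called with their RNA. Of these genes, 47 had a peak within 1 kb of the start, and they share 35 distinct peaks. A raised peak was found at 3 of the 47 genes and a lowered peak at 13, with a median log2 fold change of -0.06. These counts are of genes, so a shared peak is counted more than once. H2BC4 and H2AC6, H4C13 and H3C11, H2AC15 and H2BC15, and H3C1 and H4C1 each share a lowered peak. Of all promoter peaks, 14.2% were raised and 19.96% lowered, with a median of -0.06. H1-5 had lower RNA (-0.46, SE 0.15) and a raised start-site peak (0.21, SE 0.06). H4C3 had a raised peak (0.47, adjusted p = 5.55e-10), and its RNA value of 0.87 (SE 0.56) was not called. Of the general factors for histone expression, NPAT, an activator of histone transcription, had 1891 in the knockout and 1614 in wild type, and SLBP, which binds the stem-loop, had 4083 in the knockout and 3624 in wild type. Neither was called.

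**Figure D2:**
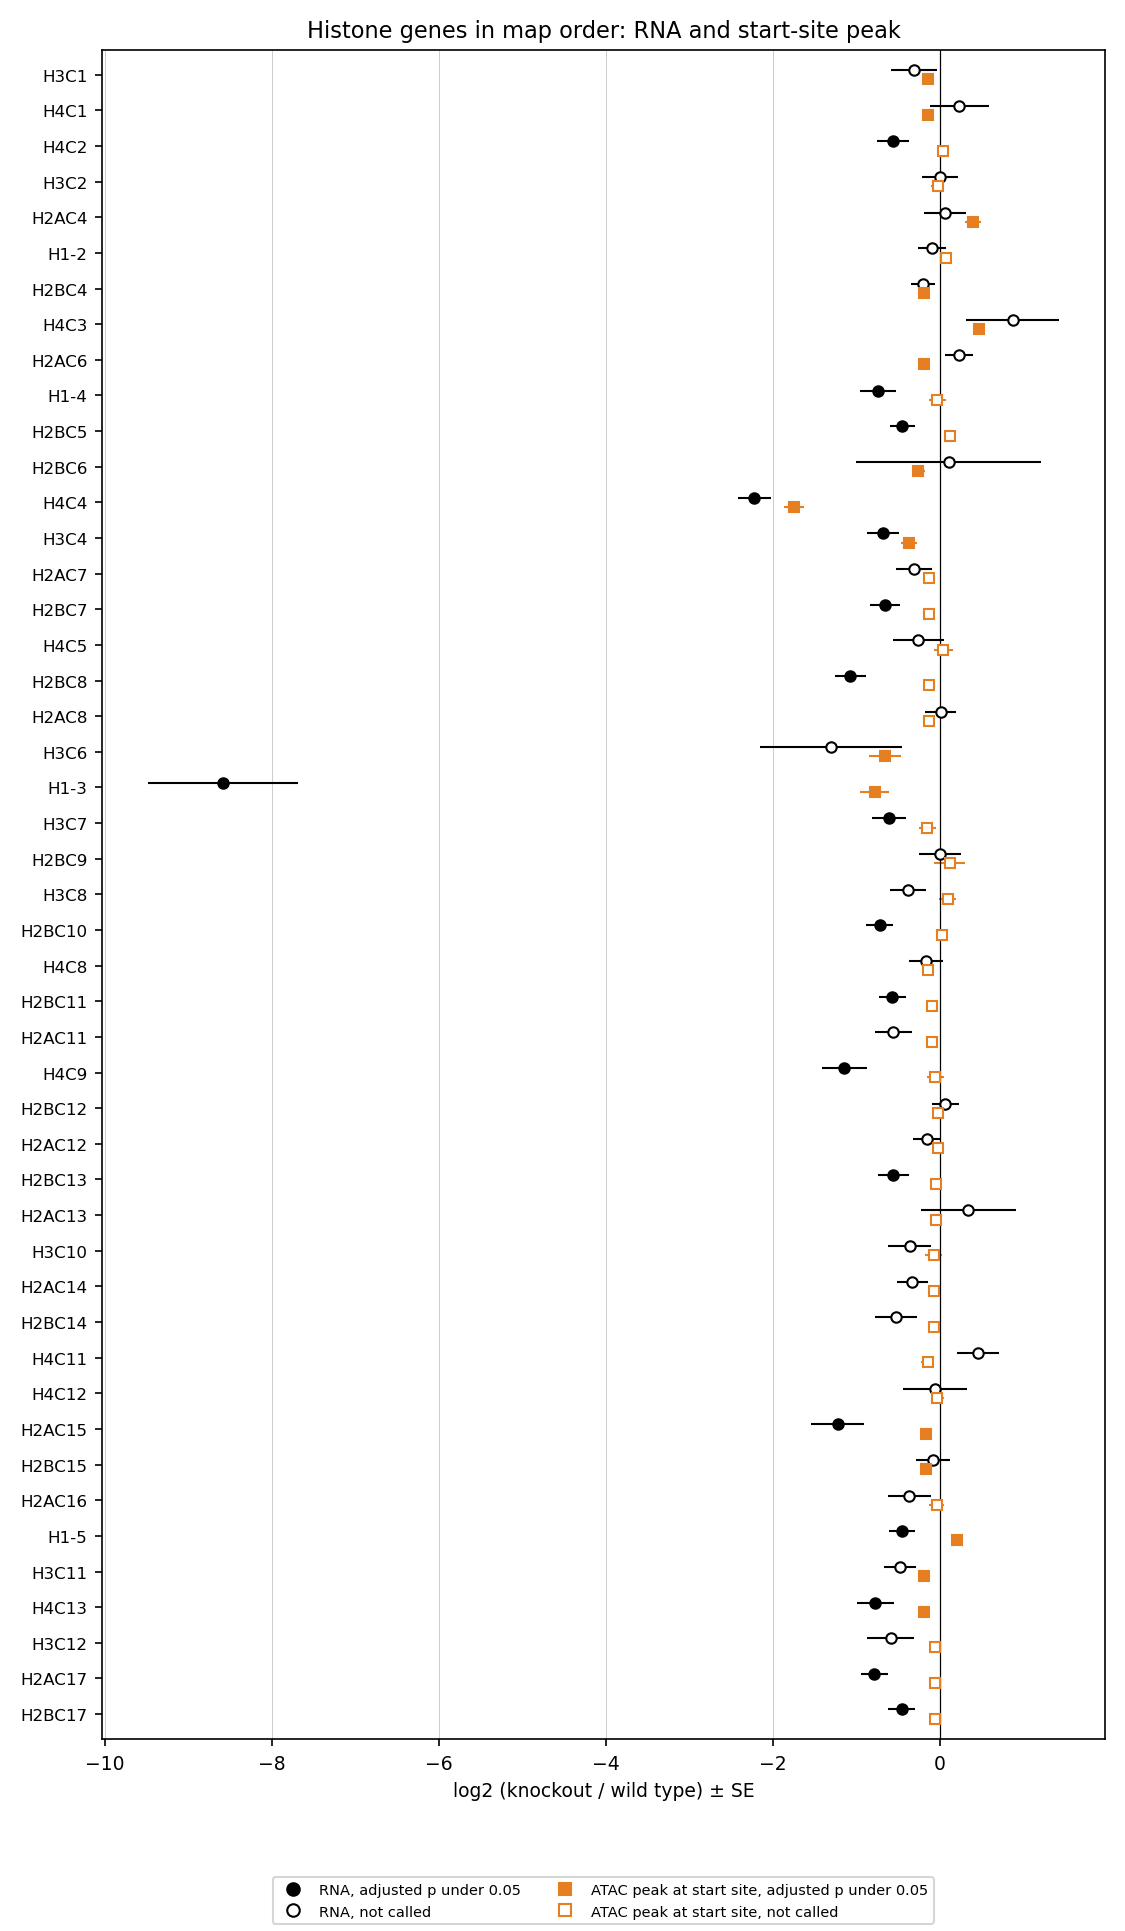
RNA (black circles) and start-site ATAC peak (orange squares) log2 fold change, knockout over wild type with SE, of the 47 tested histone genes in map order; filled symbols passed an adjusted p under 0.05. H1-3 at -8.59 and H4C4 at -2.22 stand left of all others, and H4C4 is the only gene whose peak lies below -1.

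Other genes of the histone stretch showed single changes. BTN2A2, a butyrophilin that in mice restrains T cells, rose to a fitted count of 3609 in the knockout, against 1070 in wild type (1.75 on the log2 scale, SE 0.19, adjusted p = 8.05e-19), with its promoter peak at -0.05. Its neighbour BTN2A1, which takes part in the recognition of phosphoantigens by gamma delta T cells, fell to 905 in the knockout against 1408 in wild type, and the other 3 tested butyrophilins were not called. HMGN4, a nucleosome-binding protein, fell to 1977 in the knockout against 3216 in wild type. Of 11 tested zinc finger and SCAN genes only ZNF322 was called, with 380 in the knockout and 204 in wild type. Accessibility without an RNA call was seen at the promoter of the pseudogene ZNF192P1, chr6:28161358-28162129, with 238 in the knockout and 45.4 in wild type (2.39 on the log2 scale, SE 0.25). ZKSCAN4 had a less open promoter, 98.9 in the knockout and 172 in wild type, with RNA at -0.12.

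In the class I stretch the RNA of HLA-B, HLA-C, HLA-E and HLA-F rose, and their promoter peaks were not called. Of the classical genes, HLA-B rose to a fitted count of 18779 in the knockout against 7640 in wild type (1.30 on the log2 scale, SE 0.15, adjusted p = 9.31e-17) and HLA-C to 3481 in the knockout against 1529 in wild type (1.19, SE 0.18). Of the nonclassical genes, HLA-E, a ligand of NK cell receptors, had 9510 in the knockout and 5563 in wild type (0.77, SE 0.15). HLA-F had 883 in the knockout and 298 in wild type (1.57, SE 0.27). The promoter peaks naming these 4 genes had log2 values from -0.02 to 0.17, and none was called.

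Beside them, 2 noncoding transcripts rose. HCP5, a noncoding gene between HLA-B and MICB that descends in part from a class I gene, had 1460 in the knockout and 343 in wild type (2.09 on the log2 scale, SE 0.23), with a promoter peak at 0.14. The pseudogene HLA-L had 244 in the knockout and 106 in wild type (1.20, SE 0.38). MICB, a stress ligand of the receptor NKG2D, had lower RNA, with 400 in the knockout and 681 in wild type (-0.77, SE 0.24), although its naming peak, chr6:31497424-31498261, was higher, at 683 in the knockout and 483 in wild type (0.50, SE 0.11). The peak over the GENCODE start of MICB, chr6:31493822-31495414, which names MICB-DT, was at 0.011 and not called. NLRC5, the class I coactivator, whose gene lies outside the region, fell to 892 in the knockout against 1613 in wild type (-0.85, SE 0.20), while the class I partner B2M rose to 20764 against 12828 in wild type (0.69, SE 0.19).

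The largest fold changes of the stretch were in mucin-like genes. MUCL3, a mucin-like gene, had a fitted RNA count of 152 in the knockout and 4.76 in wild type, 5.00 on the log2 scale (SE 0.72, adjusted p = 2.97e-10). The peak naming it, chr6:30940884-30941933, had 264 in the knockout and 174 in wild type (0.60, SE 0.17), and a peak in an exon of it, chr6:30951474-30952461, had 395 in the knockout and 123 in wild type (1.68, SE 0.18). HCG22, a further mucin-type gene named here after its value was seen, had 51.6 in the knockout and 5.76 in wild type (3.16, SE 1.10). Before MUCL3 on the map, an MLT1G3 repeat in the noncoding gene HCG20, chr6:30767370-30768317, had 207 in the knockout and 56.7 in wild type (1.87, SE 0.25). The interval chr6:30500563-30990948, which holds HCG20 and MUCL3, was also picked after the values were seen. Of its 54 peaks, 15 were higher (27.8%, against 20.4% of all peaks) and 8 lower (14.8%, against 15.5%). The median log2 fold change of these peaks was 0.03.

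Decreases in the class I stretch were led by ATAT1, the acetyltransferase of alpha-tubulin. Its RNA fell to a fitted count of 99.8 in the knockout against 307 in wild type (-1.62, SE 0.36, adjusted p = 1.13e-04). Its promoter peak, chr6:30626311-30627319, fell with it, to 225 in the knockout against 474 in wild type (-1.07, SE 0.14, adjusted p = 1.42e-12). Its neighbour MRPS18B, a mitochondrial ribosomal protein gene, had 3299 in the knockout and 4916 in wild type, and a promoter peak at -0.23 that was called. GABBR1, a subunit of the GABA-B receptor, fell to 146 in the knockout against 317 in wild type, and GTF2H4, a subunit of the transcription and repair factor TFIIH, fell to 365 against 640 in wild type. The promoter peaks of GABBR1 and GTF2H4 were not called.

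In class III 5 peaks were higher (6.58%, against 20.4% of all peaks) and 11 lower (14.5%, against 15.5%). With both borders of class III placed nearer class I, 7 were higher and 7 lower, so the direction depends on the borders. None of its 33 tested genes rose, against 9.89% of all genes, and 5 fell (15.2%, against 9.28%). The share called in either direction, 15.2%, was under the 19.2% of all genes. The median log2 fold change of the 33 genes was -0.37. GPSM3, AGPAT1 and PBX2 lie close together. The G-protein regulator GPSM3 had 532 in the knockout and 950 in wild type (-0.84, SE 0.22). The lipid acyltransferase gene AGPAT1 had 754 in the knockout and 1235 in wild type (-0.71, SE 0.22). The homeobox gene PBX2 had 1750 in the knockout and 2768 in wild type (-0.66, SE 0.19). CLIC1, a chloride channel protein gene, had 4301 in the knockout and 6083 in wild type (-0.50, SE 0.17). No call of the 5 held in the test against a 1.5-fold change or with scaled statistics.

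TSBP1-AS1, a long noncoding RNA towards the class II border and named here after its value was seen, fell to a fitted count of 1.44 in the knockout against 33.7 in wild type (-4.55, SE 1.44, adjusted p = 0.012). The L1PA12 peak near its start, chr6:32255170-32256278, fell to 28.1 in the knockout against 205 in wild type (-2.87, SE 0.29, adjusted p = 8.03e-22). Another peak further into TSBP1, chr6:32337428-32337837, had 3.54 in the knockout and 32.1 in wild type (-3.18, SE 0.74). The peak between them, chr6:32271140-32272018, had 97.3 in the knockout and 68.1 in wild type and was not called, so the stretch was not uniformly closed. Whether antisense reads were separated by strand when counted is not given in the sources used here.

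Peaks at the cytokine genes of class III went opposite ways. The promoter peak of TNF, chr6:31575361-31575870, fell to 162 in the knockout against 267 in wild type (-0.72, SE 0.18, adjusted p = 4.02e-04). That of LTA, which codes for lymphotoxin alpha and lies next to it, chr6:31571859-31572874, had 936 in the knockout and 795 in wild type (0.24, SE 0.09, adjusted p = 0.031); the sign of this value turned with the zero point of the rest of chromosome 6. The RNA of TNF (-0.23, SE 0.57), LTA (0.32, SE 0.25) and LTB (-0.44, SE 0.35) was not called. An L2 element inside the complement gene C2, chr6:31914497-31915698, had 187 in the knockout and 406 in wild type (-1.12, SE 0.15), while the RNA of C2, C4A, C4B and CFB was low and not called. The HSP70 genes HSPA1A, HSPA1B and HSPA1L were not called either.

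Class II held the largest group of increases. Of 9 tested chain genes 7 rose and none fell, with a median log2 fold change of 1.55, and all 4 genes of the peptide loading pair HLA-DM and its modulator HLA-DO rose, with a median of 1.06. HLA-DRA, the invariant alpha chain of HLA-DR, had a fitted count of 29737 in the knockout and 9997 in wild type, 1.57 on the log2 scale (SE 0.15, adjusted p = 5.53e-24). Its partner HLA-DRB1 had 18795 in the knockout and 7049 in wild type (1.41, SE 0.19). HLA-DPA1 had 15767 in the knockout and 5962 in wild type (1.40, SE 0.18), and HLA-DPB1 had 2861 in the knockout and 975 in wild type (1.55, SE 0.18). HLA-DQA1 had 5497 in the knockout and 2873 in wild type (0.94, SE 0.16), and HLA-DQB1 had 1655 in the knockout and 537 in wild type (1.62, SE 0.25). HLA-DRB5 was lower in level, with 177 in the knockout and 49.0 in wild type (1.86, SE 0.48). HLA-DQA2 (1.26) and HLA-DQB2 (1.88) were not called. Reads of the variable HLA genes can align to each other's reference copy or to none, which bears on their levels.

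Per kb of exon, HLA-DRA had a fitted count of 23905 in the knockout and 8036 in wild type, above HLA-DRB1 with 6096 in the knockout and 2286 in wild type. HLA-B had 4062 per kb in the knockout and 1653 in wild type. The exon length used is the union over all annotated transcripts. It was 1244 bases for HLA-DRA, 3083 for HLA-DRB1 and 4623 for HLA-B. The order of these genes per kb therefore depends on the annotation as well as on the counts. In the loading group, HLA-DMB had a fitted count of 2471 in the knockout and 940 in wild type (1.39, SE 0.19), HLA-DMA 2132 in the knockout and 1052 in wild type (1.02, SE 0.19), HLA-DOA 3922 in the knockout and 1831 in wild type (1.10, SE 0.16) and HLA-DOB 637 in the knockout and 337 in wild type (0.92, SE 0.27). A test against a 1.5-fold change kept 5 of the 7 chain genes and 2 of the 4 loading genes, and scaled statistics kept 6 and 3. The zero point of the rest of chromosome 6 kept 7 chain genes and 3 loading genes.

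The factors that act on these promoters lie outside the region. CIITA rose to a fitted count of 15060 in the knockout against 5743 in wild type (1.39, SE 0.15, adjusted p = 2.40e-18), and CD74, the invariant chain, rose to 43055 against 26030 in wild type (0.73, SE 0.14). The subunits of RFX and NF-Y were not called: RFX5 was at -0.0023, RFXAP at 0.10, RFXANK at -0.30, NFYA at 0.23, NFYB at 0.31 and NFYC at -0.41 on the log2 scale. CREB1 and IRF1 were not called.

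Genes that supply peptides to class I sit among the class II genes and did not move as a group. TAP1, a chain of the peptide transporter, had 1665 in the knockout and 1121 in wild type (0.57, SE 0.20). The immunoproteasome subunit PSMB8 fell to 959 in the knockout against 2212 in wild type (-1.21, SE 0.21, adjusted p = 4.35e-07), with its promoter peak at -0.11 and not called. PSMB9, which starts beside TAP1 on the opposite strand, was at 0.04, TAP2 at -0.14 and TAPBP at 0.14, none of them called. At the far end of the stretch, the histone H3.3 chaperone DAXX fell to 2928 against 4572 in wild type (-0.64, SE 0.22), with its promoter peak at -0.27 (adjusted p = 0.0095). VPS52, of endosomal transport, named after its value was seen, rose to 2384 in the knockout against 1661 in wild type.

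**Figure D3:**
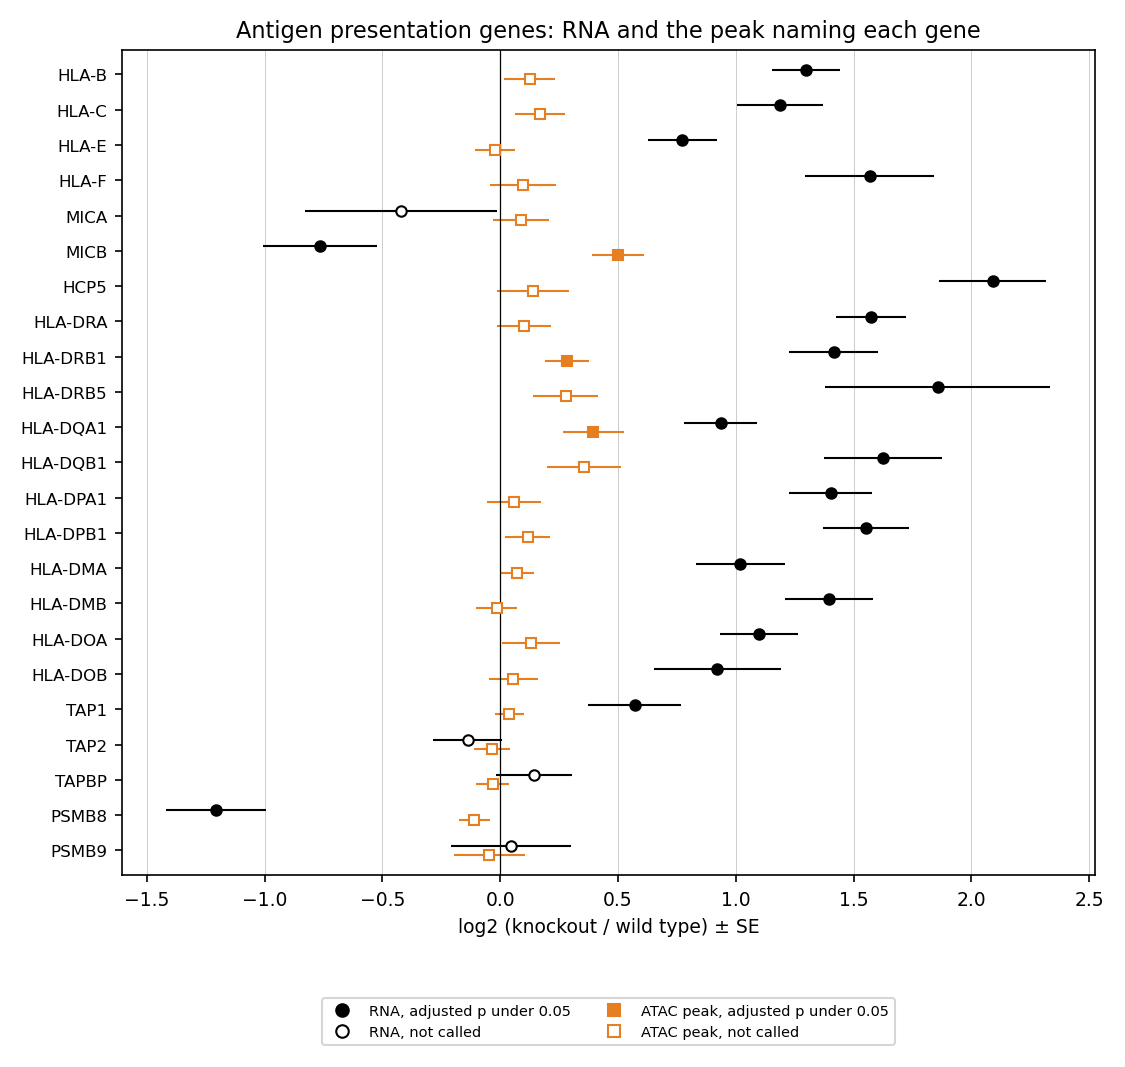
RNA (black circles) and naming ATAC peak (orange squares) log2 fold change, knockout over wild type with SE, of class I, class II and peptide supply genes; filled symbols passed an adjusted p under 0.05. RNA of the class II genes drawn lies between 0.92 and 1.86 while their naming peaks lie between -0.02 and 0.40; the peak over the GENCODE start of HLA-DQB1, at 0.60, is not drawn.

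Most naming peaks of the class II genes with raised RNA were not called. Of the 13 genes of the stretch whose RNA rose, 2 had a raised naming peak: HLA-DQA1, with 468 in the knockout and 356 in wild type (0.40, adjusted p = 0.0085), and HLA-DRB1, with 850 in the knockout and 698 in wild type (0.28, adjusted p = 0.0085). The promoter peak of HLA-DRA had 518 in the knockout and 483 in wild type (0.10, SE 0.12). A peak beyond HLA-DRA, chr6:32473145-32474457, had 566 in the knockout and 426 in wild type (0.41, SE 0.12). Between HLA-DQB1 and HLA-DQA2 a site in an L1PA10 element, chr6:32679426-32680438, had 80.4 in the knockout and 34.3 in wild type (1.23, SE 0.35). GENCODE starts HLA-DQB1 further upstream than the peak annotation does. The peak over that start, chr6:32668034-32669014, which lies 1867 bases from the start used in the annotation, rose to 567 in the knockout against 374 in wild type (0.60, SE 0.12). BRD2, which codes for a chromatin reader, had a lowered promoter peak, 591 in the knockout and 791 in wild type, and a raised peak in an intron, 287 in the knockout and 173 in wild type.

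Across the region, 155 tested genes had a naming peak within 1 kb of their start. Of the 52 with an RNA call, 10 had a peak called in the same direction, 2 in the opposite direction and 40 had no peak call. The 23 genes with higher RNA had a median peak value of 0.10 and the 29 with lower RNA a median of -0.07, while genes with no RNA call had -0.05. Pearson's r between the log2 values was 0.53 and Spearman's rho 0.45 over these 155 genes, which are not independent, since neighbours share peaks and all share the same libraries. The 10 pairs called in the same direction included H4C4, ATAT1, TSBP1-AS1, MUCL3 and H1-3, with the largest changes, and the opposite pairs were MICB, by its naming peak and not by its start-site peak, and H1-5.

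**Figure D4:**
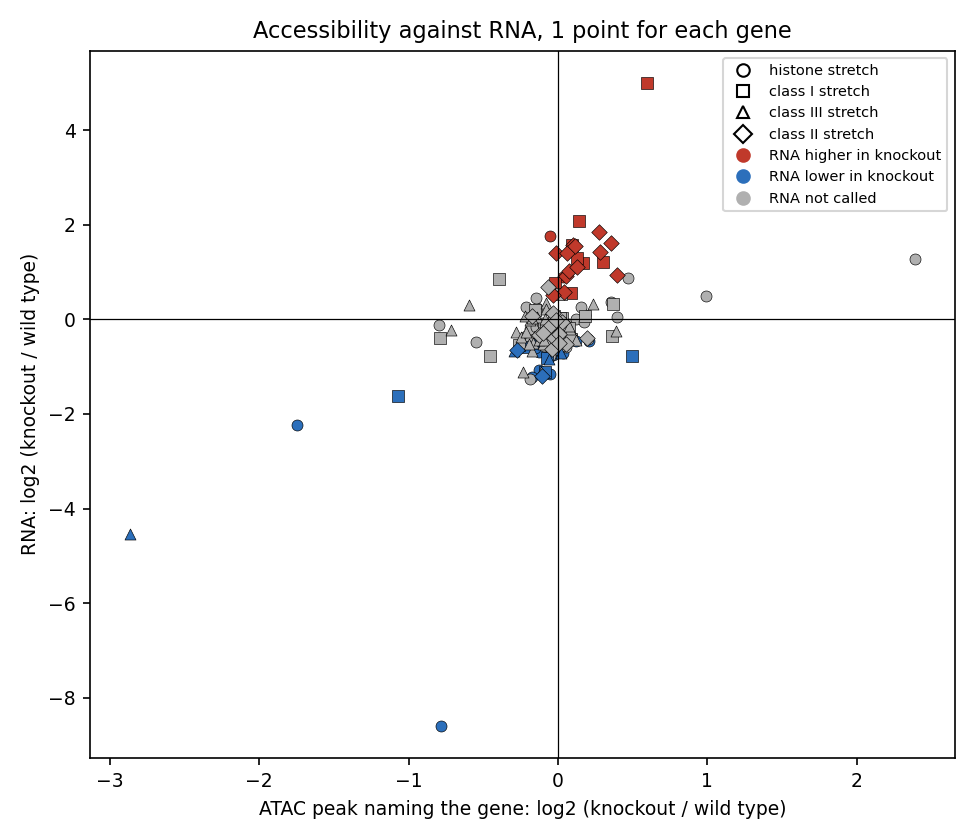
RNA log2 fold change (vertical) against that of the ATAC peak naming the gene (horizontal), knockout over wild type, for the 155 tested genes with a peak within 1 kb of their start; shapes are the 4 stretches and colours the RNA call. Most genes with called RNA lie in a narrow band near 0 on the horizontal axis, and 10 of 52 have a peak called in the same direction.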

How the data were processed

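Per the labels' protocols, RNA was poly(A)-selected and sequenced with a stranded kit, and ATAC-seq used Tn5 on 50000 cells. The submitters' processing notes name Trim Galore, Trimmomatic, cutadapt, STAR, featureCounts, Bowtie2, HOMER and DESeq2 with GRCh38 or hg38; no source used here gives their versions, order and settings or the peak caller. Both deposited tables are DESeq2 output, per the file headers: the signal is the mean of counts divided by size factors over 4 libraries, and the fold change and its SE are on the log2 scale. The deposited score is the Wald statistic, which is the ratio of these, and the deposited p-value and adjusted p follow from it. The other deposited unit is HOMER's distance in bp from a peak to the nearest start site.

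Without values per library, the planned count test could not be run and the authors' Wald results were used at an adjusted p under 0.05. Fitted counts for each genotype follow from the mean and the fold change, with 2 libraries on each side. p-values come from the fold change set against its SE, fitted on these libraries, which the design text calls biological replicates. How far they cover variation between clones is not known. Precision is given by the SE, since counts behind each value are unknown. Gene positions and exon lengths came from GENCODE release 44, promoters from RefSeq, and older HIST1 symbols were resolved by gene ID. Alternative tests, filters and zero points were recomputed over the whole tables, and the recalculation was tested on simulated data.

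Named genes are the list members past the threshold and, in each stretch, up to 5 increases and 5 decreases with at least 1 CPM. Named peaks are up to 4 increases and 4 decreases of a stretch whose mean count is not under that of the median peak, and the peak naming each gene nearest its start; some of them are not reported here. Members and lists were chosen with earlier results of these data known. Calculations used Python 3.11.15, numpy 2.4.6, pandas 2.3.3, scipy 1.17.1 and matplotlib 3.10.9.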

Additional observations from a re-analysis of the deposited data

How the results depend on the processing

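No paired analysis was possible because the tables hold no values per library, and leaving out single libraries was not run for the same reason. Counts are given as the region, then histone, class I, class III and class II. The test against a 1.5-fold change gave 38 peaks, then 16, 15, 5 and 2, and 15 genes, then 3, 5, 0 and 7. Scaled Wald statistics gave 14 peaks, then 5, 7, 1 and 1, and 19 genes, then 4, 5, 0 and 10. The count of 0 in class III compares with 5 genes at the authors' adjusted p. Asking for 1 log2 unit gave 59 peaks, then 18, 30, 6 and 5, and 26 genes, then 6, 9, 1 and 10. Centring on the rest of chromosome 6 gave 314 peaks, then 103, 102, 55 and 54, 88 genes in the region, 34 in histone and 13 in class III, and it turned the LTA promoter peak to -0.18. An adjusted p under 0.01 left 12, 9 and 3 genes in histone, class I and class III. Genes of promoter peaks alone gave 35, with 9 in histone and 9 in class I. A mean of at least 100 left 37 class I peaks. Centring on the rest of 6p, chosen after seeing the data, gave 27 class III peaks. The other totals of called peaks or genes stayed within 1.5 times, but splits by direction moved: with both borders of class III nearer class I its peaks were 7 higher and 7 lower, and class II had 10 lower, and centring on the rest of 6p gave 93 higher and 78 lower in the region. Of 89 named peaks and genes, 59 lost their call in the 1.5-fold test, 60 with scaled statistics and 22 at 0.01. When centred on the rest of chromosome 6, 11 lost their call without a change of sign. The LTA promoter peak, which changed sign there, lost its call as well. With 2 libraries of each genotype and assay, and means as low as those of MUCL3 in wild type, small changes and low genes are the least certain.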

Other observations

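Motif content was counted in the central 300 bases of each peak, on both strands. The CTCF core, which is CC, any base, C, any base, AG, any 2 bases and GGC, was found in 0 of the 103 raised and 0 of the 47 lowered peaks of the region, and in 24 of the 370 that were not called. Over the whole table it was in 6.72% of peaks, in 2.67% of those raised and in 4.52% of those lowered. An NF-kB site, which is GGGA, any base and TTTCC, was in 4 of the 103 raised, 0 of the 47 lowered and 3 of the 370 uncalled peaks of the region. Over the whole table it was in 2.34% of raised, 0.541% of lowered and 1.06% of all peaks. The median GC content of these windows was 47.3% in raised and 53.3% in lowered peaks of the region, against 48.3% over all peaks. These are counts of letter matches, without a test.

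Peaks of the region in transposable elements, also picked after seeing the data, gave 13 higher and 5 lower of 44 in long terminal repeats, with a median log2 fold change of 0.17, against 0.13 for 5788 such peaks elsewhere. The shares called higher and lower were 29.5% and 11.4% in the region and 26.6% and 12.8% elsewhere. In LINE elements 5 were higher (20.8%) and 4 lower (16.7%) of 24, against 22.6% and 15.97% elsewhere. In DNA elements 1 was higher and 0 lower of 4, against shares of 18.7% and 17.8% elsewhere. In SINE elements 7 were higher (35%) and 2 lower (10%) of 20, against 23.4% and 15.4% elsewhere. The median of the SINE peaks was 0.32, against 0.04 elsewhere.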
